A study of Mus musculus with 11 samples.

Results

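Fibroblasts of advanced mammary carcinomas were compared with fibroblasts of normal mammary glands on 5 of the 11 microarrays of a series that follows tumour progression in mice. The 3 advanced carcinoma arrays (D8, D9 and D11) came from tumours of 12-week-old MMTV-PyMT females, and the 2 normal arrays (D2 and D5) from mammary tissue of 8-week-old FVB/n females. In both groups the cells had been dissociated from fresh tissue and sorted by flow cytometry for CD140a, the platelet-derived growth factor receptor alpha, and against the macrophage antigen F4/80, and the labels add selection against the epithelial antigen EpCAM. The remaining 6 arrays held fibroblasts of hyperplastic glands at 4 weeks (3 arrays) and of carcinomas at 9 weeks (3 arrays), and they entered the fit to share the estimate of spread. Each array was prepared from the pooled cells of a cohort of mice. Groups were taken from the sample titles, no measured value was used to choose them, and all 19938 genes with a probe set of their own were examined.

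In MMTV-PyMT mice the mouse mammary tumour virus promoter drives the polyoma virus middle T antigen in mammary epithelium, and females pass through hyperplasia and carcinoma to advanced, metastasising carcinoma. The promoter does not direct the oncogene to fibroblasts. Cancer-associated fibroblasts build and degrade extracellular matrix and secrete growth factors, cytokines and proteases. Normal gland fibroblasts deposit the collagen sheath of the ducts and lie among adipocytes, vessels and contractile myoepithelium. The tumour-bearing mice were also older than the normal mice, so stage and age cannot be told apart.

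A fixed relation between a normal and an advanced array had to be dealt with before any comparison. In every probe set the values of D2 and D11 summed to 2 times the average of the 9 remaining arrays, with a largest gap of 0.000144 on the log2 scale, whereas the smallest such gap in any other pair was 3.55. The 11 arrays therefore held 10 independent columns. How the relation arose is not given in the sources used here, and the D2 and D11 values printed throughout may not be measured intensities of those arrays. A term shared by D2 and D11 was placed in the limma model, and the fitted change became a weighted mean of D11 minus D2 (weight 0.429) and of the mean of D8 and D9 minus D5 (weight 0.571). Directions were read again in D8 and D9 against D5 alone, which is part of the same fit and not separate evidence. Nothing in the labels says how the cohorts were spread over litters or days, so the p-values describe the spread between these arrays.

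A total of 466 genes passed an adjusted p of 0.05 (2.34% of genes tested): 323 were higher in advanced carcinoma (1.62%) and 143 lower (0.717%). The median change of the higher genes was 1.32 on the log2 scale and that of the lower genes -1.06, beside -0.03 over all genes. Among the higher genes 224 exceeded a 2-fold change and 80 a 4-fold change, and among the lower genes 75 and 16. The higher genes were dim in normal glands, with a median level of 5.07 that became 6.99, and the lower genes went from 6.96 to 5.56, while the median of all genes was 5.59 in normal glands and 5.68 in advanced carcinoma. In all 466 genes the 3 advanced arrays lay on 1 side of both normal arrays, and D8 and D9 both lay beyond D5. That ordering was found in 21.5% of all genes upwards and 26.5% downwards, and the ordering of D8 and D9 against D5 in 35.6% and 50.4%.

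**Figure D1:**
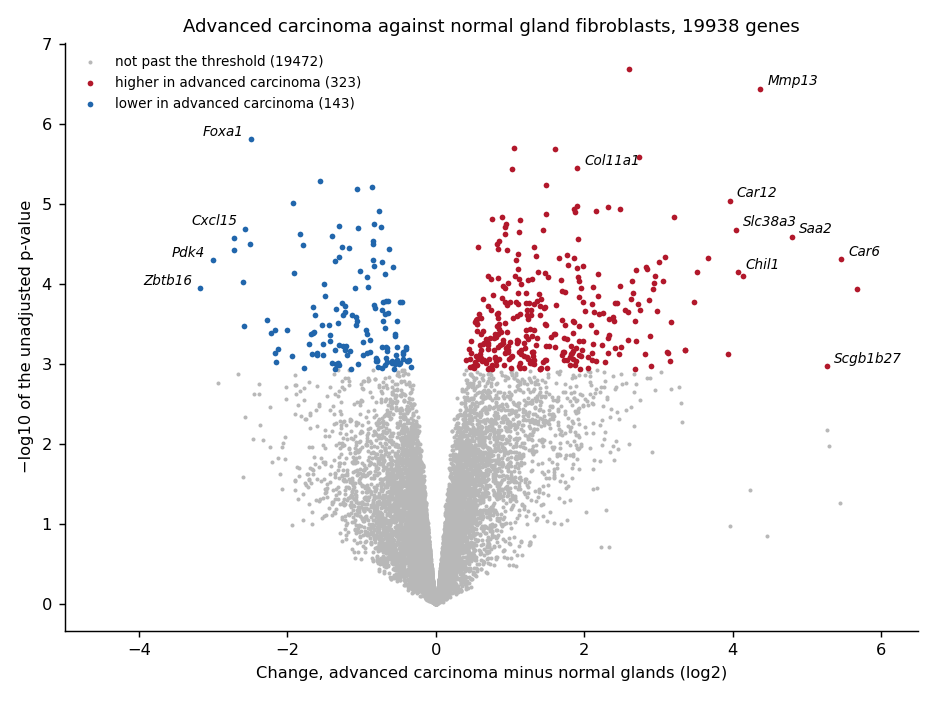
Fitted change (x axis, log2, advanced carcinoma minus normal glands) against the unadjusted p-value (y axis, −log10) for 19938 genes, 1 point a gene. The 323 genes in red and 143 in blue had an adjusted p under 0.05, and Mmp13 combines one of the largest changes with the joint smallest adjusted p.

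The number of calls rested on these few arrays. Without the tied pair, with D5 as the lone normal array assumed to vary like the other groups, 27 genes were called (0.135%), and 24 of them belonged to the 466. Leaving out D2 alone or D11 alone was the same fit by construction, since the shared term then took up the other tied array. Leaving out D5 reduced the change to D11 minus D2, so its changes rest on the tied arrays alone. Leaving out D8 gave 12 calls and leaving out D9 gave 3. Without the shared term 1118 genes were called (5.61%), all 466 among them, and leaving out the carcinoma array D4 raised the count to 2493. Among the genes described here, the collagenase gene Mmp13 was called in each of the 22 alternatives that gave it a value, and the transcription factor gene Foxa1 in 22 of 23.

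The sort was checked on the genes of its antigens and on markers of other cell types. Fibroblast genes were among the brightest on the normal and advanced arrays. The mean of 13 markers, among them collagens, decorin and lumican, was 10.85 and 11.28 in D2 and D5 and 10.86, 10.86 and 10.93 in D8, D9 and D11. None of the 13 passed the test. All 13 differences were below 0, with a median of -0.20, and 6 of the 13 did not overlap, downwards, beside 26.5% of all genes. In the carcinoma arrays, which share the spread estimate, the mean of these markers ran from 9.36 to 11.03. Pdgfra, which encodes CD140a, read 10.80 and 11.35 in normal and 10.60, 10.50 and 10.80 in advanced arrays, a difference of -0.46 ± 0.49 (SE, adjusted p = 0.66).

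Markers of luminal epithelium and of macrophages stood higher in the advanced arrays. The mean of 16 luminal markers was 7.51 and 6.89 in D2 and D5 against 9.23, 9.18 and 8.48 in D8, D9 and D11, and 15 of the 16 did not overlap between the groups, all upwards, beside 21.5% of all genes. Wfdc18, a gene of the whey acidic protein family made in mammary epithelium, was the single member past the test, higher, beside 1.62% of all genes. It read 8.13 and 7.64 against 10.48, 10.38 and 10.36, a change of 2.55 ± 0.40 (adjusted p = 0.0251). Epcam read 8.01 and 7.37 against 9.62, 9.57 and 8.69, with a difference of 1.56 ± 0.52 that missed the threshold (adjusted p = 0.15). The mean of 12 macrophage markers was 5.94 and 4.90 against 7.95, 8.10 and 6.46, and 11 of them did not overlap, upwards, beside the same 21.5%, although none passed. Adgre1, the gene of F4/80, read 5.07 and 3.79 against 7.49, 7.66 and 5.74 (difference 2.45 ± 0.76, adjusted p = 0.13). Both lists were thus lowest in D5 and highest in D8 and D9, with the tied arrays between. At an unadjusted limma p under 0.05 and a fold above 1.5, 13 luminal and 11 macrophage markers were higher, beside 6.29% of all genes. Without the shared term 8 luminal markers and 1 macrophage marker were called, all higher, beside 5.61% of all genes in either direction.

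Lymphocyte and endothelial markers were high in the normal array D2. The 9 T and NK cell markers averaged 7.56 in D2, 5.91 in D5 and 5.84, 5.68 and 5.35 in the advanced arrays, and 6 B cell markers 7.58, 6.72, 6.13, 5.67 and 5.48. The 10 endothelial markers averaged 7.57 in D2 and between 6.17 and 6.89 in the other 4 arrays. No member of these 3 lists was called. In a sorted bulk sample, fewer cells of a type and less RNA per cell cannot be told apart.

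**Figure D2:**
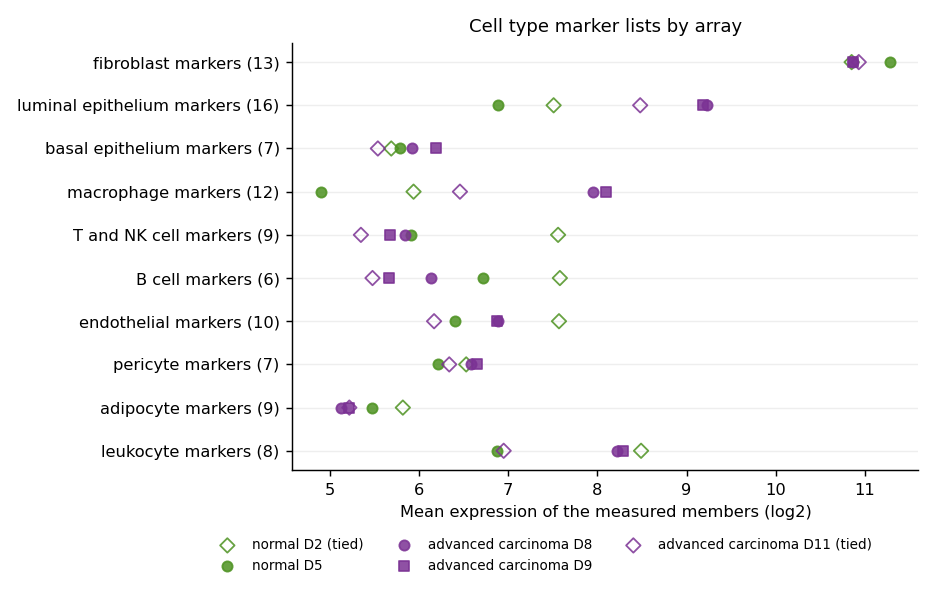
Mean expression (x axis, log2) of the measured members of 10 cell type marker lists (y axis, number of members in brackets) in the 2 normal arrays (green) and 3 advanced carcinoma arrays (purple), with open diamonds for the tied D2 and D11. Fibroblast markers lie near 11 in all 5 arrays, while luminal and macrophage markers are higher in D8 and D9 than in both normal arrays.

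These marker levels moved with the main comparison, so the mean of either list was added to the model as a covariate. With the luminal mean 66 of the 323 higher and 46 of the 143 lower genes were still called, none with the opposite sign, and the median change of the higher genes became 0.82. With the macrophage mean 53 and 47 were still called, and that median became 0.87. The luminal covariate shifted the whole set of calls to 94 higher and 476 lower genes, and the macrophage covariate to 84 and 250. Among the 50 called genes that the naming rule selects, 16 were called with each covariate: Mmp13, Car6, Car12, Slc38a3, Elapor1, Col11a1 and Mmp10 higher, and Foxa1, Cyp3a57, Cxcl15, Tlcd4, Irf4, Oxtr, Cnn1, Myh11 and Mt1 lower. Each covariate was entered alone. With the luminal mean the change of Car6 went from 5.46 to 3.06 and that of Car12 from 3.96 to 2.61. Slc38a3 went from 4.04 to 2.585 and Elapor1 from 3.67 to 2.05, while Mmp13, Col11a1 and Mmp10 gave 4.65, 1.89 and 0.826. Among named genes that lost their call with both covariates, the luminal mean took Thrsp from 3.94 to 1.465 and Slc2a1 from 1.42 to 0.804. It took Pfkl from 2.25 to 1.267 and Vdr from 1.96 to 0.663, and the macrophage mean took Ccl8 from 1.88 to 0.864. The part of other cell types in the calls, those 16 included, was not tested beyond these fits.

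The genes with the largest increases included a pair of carbonic anhydrases. Car6, a secreted carbonic anhydrase of saliva and milk, read 5.24 and 2.89 in normal D2 and D5 and 8.89, 9.15 and 9.80 in advanced D8, D9 and D11. Its change was 5.46 ± 0.70 (SE, adjusted p = 0.015). The normal arrays differed from each other here by more than the advanced ones did. Car12, a membrane carbonic anhydrase, read 5.20 and 4.09 against 8.51, 8.50 and 8.54, a 15.5-fold change (3.96 ± 0.40, adjusted p = 0.0119), and its 3 advanced values were nearly equal. With predicted genes left aside, the 10 largest increases also held Slc38a3, a glutamine transporter (4.04 ± 0.46), and the endosome and lysosome protein gene Elapor1 (3.67 ± 0.47). The lipogenic regulator Thrsp (3.94 ± 0.75) was among them as well.

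Secretoglobins and genes of milk and mucosal secretion were among the increases. Scgb1b27 read 4.64 and 4.6 against 8.73, 10.66 and 10.14, and Scgb2b27 read 4.27 and 3.23 against 7.16, 7.82 and 8.24. Both are small secreted proteins of glands, and the changes were 5.27 ± 1.06 (adjusted p = 0.0482, and 0.051 under quantile normalisation) and 4.14 ± 0.57 (adjusted p = 0.0173). A further probe set of Scgb1b27 gave 3.28 with an adjusted p of 0.124, and near-identical family members may share its probes. A set of 3 epithelial genes chosen after their values were seen belonged to the 323: the whey protein gene Wap (4.13 and 3.42 against 6.76, 6.52 and 7.25), the polymeric immunoglobulin receptor gene Pigr (4.26 and 3.63 against 7.30, 7.12 and 7.32) and the water channel gene Aqp5 (6.71 and 5.99 against 9.05, 9.21 and 8.69). The luminal markers above were higher in the same arrays.

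**Figure D3:**
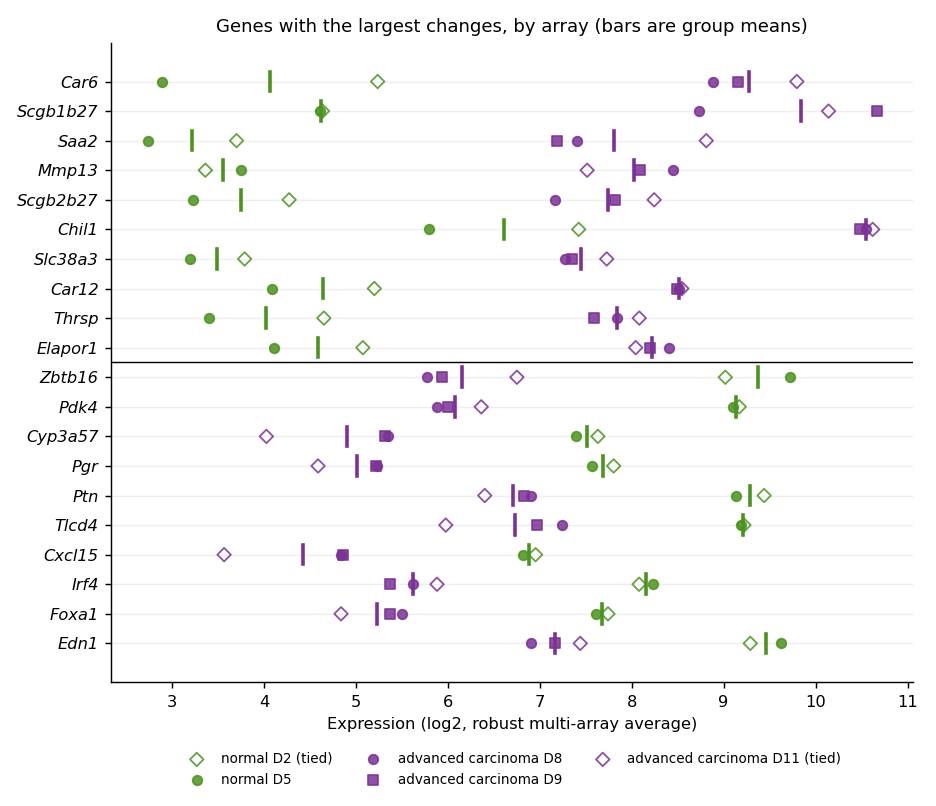
Expression (x axis, log2) by array of the called genes with the largest changes, predicted genes left aside. The 10 largest increases form the upper block and the 10 largest decreases the lower block. Normal arrays are in green and advanced carcinoma arrays in purple, with open diamonds for the tied D2 and D11 and bars for group means. No gene shows an overlap between the groups, and the normal D2 and D5 differ most in Car6.

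Among 12 acute phase and innate secreted proteins, which dampen or fight infection and are made in inflamed tissue, 4 were called, all higher, beside 1.62% of all genes. The gene lists here and below were chosen with earlier results of these data known. Their counts beside the share of all genes are therefore descriptions only. Saa2, a serum amyloid A, read 3.70 and 2.74 against 7.41, 7.19 and 8.81 (4.80 ± 0.56, adjusted p = 0.0129). Chil1, a chitinase-like lectin, read 7.42 and 5.80 against 10.55, 10.48 and 10.62 (4.07 ± 0.55, adjusted p = 0.017). Cp, the copper-carrying ferroxidase ceruloplasmin, changed by 1.0 ± 0.15 and Saa3 by 1.40 ± 0.28, the latter at an adjusted p of 0.0497, and at 0.0532 under quantile normalisation. The list's median change was 1.46, and 9 of its 12 members did not overlap, all upwards, beside 21.5% of all genes. Ltf, which encodes lactoferrin (2.89, adjusted p = 0.056), and Lcn2, which encodes lipocalin 2 (2.10, adjusted p = 0.0734), did not pass.

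Matrix-degrading enzymes changed at few genes and by very different amounts. Mmp13, interstitial collagenase, read 3.36 and 3.75 in normal D2 and D5 and 8.45, 8.09 and 7.52 in advanced D8, D9 and D11. This 20.6-fold change (4.37 ± 0.29) had the joint smallest adjusted p of the comparison, 0.00364. Mmp10, stromelysin 2, read 4.61 and 4.89 against 5.42, 5.34 and 5.29, a 0.57 ± 0.11 difference (adjusted p = 0.0437) that was lost under quantile normalisation (adjusted p = 0.0772) and with median-centred arrays (adjusted p = 0.117). They were the 2 called members among 21 proteases and inhibitors, both higher, beside 1.62% of all genes. The list's median change was -0.31. Mmp2, Mmp3, Mmp9 and Mmp14 gave -0.20, 0.69, 0.43 and -0.33 with adjusted p of 0.816, 0.693, 0.294 and 0.734.

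Both called protease genes carry the letters of an AP-1 element, the site of Fos and Jun dimers, shortly before the start of transcription, and their promoters are shown for that match. The windows run from 250 bases before to 50 after the RefSeq start site (GRCm38.p6, plus strand), at chr9:7272264-7272563 for Mmp13 and chr9:7502092-7502391 for Mmp10, with the match to TGANTCA on either strand in capitals.
Mmp13: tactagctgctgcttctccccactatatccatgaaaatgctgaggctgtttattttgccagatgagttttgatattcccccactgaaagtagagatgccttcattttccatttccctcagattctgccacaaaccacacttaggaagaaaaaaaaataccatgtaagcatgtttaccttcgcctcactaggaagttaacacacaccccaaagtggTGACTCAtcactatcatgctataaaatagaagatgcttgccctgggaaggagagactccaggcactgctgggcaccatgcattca
Mmp10: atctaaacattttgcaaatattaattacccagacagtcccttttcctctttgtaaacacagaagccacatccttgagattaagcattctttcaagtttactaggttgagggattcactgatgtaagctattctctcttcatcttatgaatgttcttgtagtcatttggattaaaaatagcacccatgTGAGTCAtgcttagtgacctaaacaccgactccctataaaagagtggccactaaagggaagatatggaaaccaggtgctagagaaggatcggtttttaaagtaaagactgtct
The matches begin at positions -35 and -63 from the start site. Such a match was present in 8.97% of all genes' promoters and in 8.08% of those of the genes tested, in 4 of the 14 proteases and inhibitors with a promoter in the table (28.6%), in 9.56% of the 251 higher genes with one and in 8.04% of the 112 lower genes. No binding was measured, and the match is a description of the sequence.

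Collagens split by type. Col11a1, a minor fibrillar collagen, read 4.74 and 4.48 against 6.39, 6.64 and 6.46 (1.90 ± 0.17, adjusted p = 0.00913). It was the single called member of 20 chains, higher, beside 1.62% of all genes. The 3 chains of collagen IX, chosen after their values were seen, were also called: Col9a1 changed by 1.91 ± 0.23, Col9a2 by 0.85 ± 0.10 and Col9a3 by 0.76 ± 0.08. The abundant chains gave differences near 0, with -0.15 for Col1a1, -0.25 for Col1a2 and -0.35 for Col3a1 (adjusted p of 0.904, 0.849 and 0.777). Col12a1 (7.54 and 8.15 against 10.07, 10.21 and 10.04), Col8a1 and the matrix glycoprotein gene Tnc showed no overlap but did not pass (adjusted p of 0.152, 0.116 and 0.15). Their spread estimate is shared with the carcinoma arrays, where the SDs of these genes were 1.56, 1.51 and 1.14. The SDs were 0.43, 0.255 and 0.09 in normal glands and 0.09, 0.23 and 0.26 in advanced carcinoma. None of the 14 collagen processing enzymes and none of the 18 matrix glycoproteins and proteoglycans was called.

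Contractile genes fell at 3 of 12 members, beside 0.717% of all genes. Cnn1, calponin, read 7.07 and 6.61 against 5.17, 5.25 and 4.26 (-2.0 ± 0.34, adjusted p = 0.0323). Myh11, smooth muscle myosin heavy chain, changed by -1.94 ± 0.37 and the myosin light chain gene Myl9 by -1.31 ± 0.26, the last without a call under quantile normalisation (adjusted p = 0.0538). These proteins are made by smooth muscle and by mammary myoepithelium. Acta2 and Tagln, further contractile genes that activated fibroblasts also make, gave -0.44 and 0.01 with adjusted p of 0.492 and 0.995. Oxtr, the oxytocin receptor gene of myoepithelium, read 6.39 and 6.64 against 5.45, 5.62 and 4.82 (-1.30 ± 0.24, adjusted p = 0.0395). The basal keratin genes Krt5 and Krt14 stood at 6.72 and 6.99 against 7.75, 8.11 and 7.11, and at 6.09 and 6.23 against 7.0, 7.28 and 6.34, without passing. The basal marker list as a whole overlapped between the groups.

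Fabp4, a fatty acid-binding protein of adipocytes, was the called member of 9 adipocyte markers, lower, beside 0.717% of all genes. It read 10.45 and 9.77 against 8.26, 8.03 and 8.16 (-1.91 ± 0.26, adjusted p = 0.0171). The adipocyte regulator gene Pparg differed by -1.02 ± 0.25 (adjusted p = 0.0755), and Adipoq and Plin1, which define mature adipocytes, by -0.24 and -0.23, at levels of 4.35 and 4.02 and of 5.23 and 4.76 in normal glands. The 10 measured genes of adventitial progenitor fibroblasts, among them Dpp4 and Pi16, had a median change of -0.79, and 9 did not overlap, downwards, beside 26.5% of all genes, yet none was called. Dpp4, a cell surface peptidase, read 10.78 and 10.83 against 9.49, 9.47 and 9.95, with an adjusted p of 0.192.

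The largest decreases held transcription factors, signalling proteins and enzymes. Foxa1, a pioneer factor of hormone-responsive epithelium, read 7.74 and 7.61 in normal D2 and D5 and 5.50, 5.37 and 4.84 in advanced D8, D9 and D11 (-2.49 ± 0.20, adjusted p = 0.00824). Pgr, the progesterone receptor gene, read 7.80 and 7.57 against 5.23, 5.22 and 4.59 (-2.72 ± 0.34, adjusted p = 0.0136). Irf4, a transcription factor best known in lymphocytes, read 8.08 and 8.24 against 5.62, 5.37 and 5.88 (-2.51 ± 0.30, adjusted p = 0.0134). In these 3 genes D2 and D5 were close to each other. Ptn, the growth factor pleiotrophin, and Edn1, the vasoconstrictor endothelin 1, changed by -2.60 ± 0.37 and -2.27 ± 0.37. Cyp3a57, a cytochrome P450, changed by -2.72 ± 0.32, Tlcd4 by -2.58 ± 0.43 and the chemokine gene Cxcl15 by -2.57 ± 0.29.

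Hormone receptors moved in both directions. Beside Pgr, the vitamin D receptor gene Vdr was called among 10 receptors, so 1 was lower and 1 higher, beside 0.717% and 1.62% of all genes. Vdr read 6.25 and 5.82 against 8.11, 8.29 and 7.64 (1.96 ± 0.38, adjusted p = 0.0432). Nr3c1, the glucocorticoid receptor gene, read 8.97 and 9.01 against 8.62, 8.60 and 8.64, a difference of -0.37 ± 0.10 that missed the threshold (adjusted p = 0.0896).

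Genes that glucocorticoids induce fell at 5 of 14 members, beside 0.717% of all genes. This list, too, was chosen with earlier results of these data known, so the count is a description. Zbtb16, a zinc finger factor, read 9.02 and 9.72 against 5.78, 5.94 and 6.75 (-3.18 ± 0.46, adjusted p = 0.0194), the largest decrease of all called genes. Pdk4, a kinase that restrains pyruvate oxidation, read 9.17 and 9.10 against 5.88, 6.0 and 6.36 (-3.01 ± 0.39, adjusted p = 0.015). Klf9, Errfi1 and Mt1, a transcription factor, an inhibitor of epidermal growth factor receptors and a metallothionein, changed by -1.52 ± 0.29, -0.83 ± 0.11 and -0.68 ± 0.09. The median of the list was -0.75, with 12 of 14 members not overlapping, downwards (26.5% of all genes), and Ddit4 as the single member with a difference above 0. Fkbp5 and Tsc22d3, widely used reporters of the receptor, gave -0.84 and -0.74 with adjusted p of 0.123 and 0.0723. Klf9 and Errfi1 were also called without the tied pair. Dbp, an output gene of the circadian clock, was the called member of 14 clock genes, lower, beside 0.717% of all genes. It read 7.26 and 8.85 against 5.93, 5.98 and 6.10 (-2.15 ± 0.42, adjusted p = 0.0456). The core clock gene Arntl differed the other way by 0.71 (adjusted p = 0.0579). The time of day at which tissue was taken is not given in the sources used here.

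Growth factors changed at 4 of 22 members, 1 higher and 3 lower, beside 1.62% and 0.717% of all genes. Tgfb3, transforming growth factor beta 3, read 8.73 and 8.35 against 9.58, 9.62 and 9.56 (1.07 ± 0.15, adjusted p = 0.0173). Bmp7 read 8.52 and 8.51 against 6.95, 6.60 and 6.99 (-1.64 ± 0.28, adjusted p = 0.0333), and Bmp2 and the fetal growth factor gene Igf2 changed by -0.88 ± 0.16 and -1.08 ± 0.18. The ligands of the transforming growth factor family thus moved in opposite directions, and Tgfb1 and Tgfb2 gave 0.59 and 0.10 without passing. Axin2, a target and feedback inhibitor of Wnt signalling, read 6.56 and 6.63 against 5.72, 5.69 and 5.67 (-0.91 ± 0.13, adjusted p = 0.0194). It was the single called member of 19 Wnt genes, lower, beside 0.717% of all genes. Wnt4 was not called (-0.44 ± 0.13), but its other probe set changed by -0.60 with an adjusted p of 0.0449 over all probe sets.

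**Figure D4:**
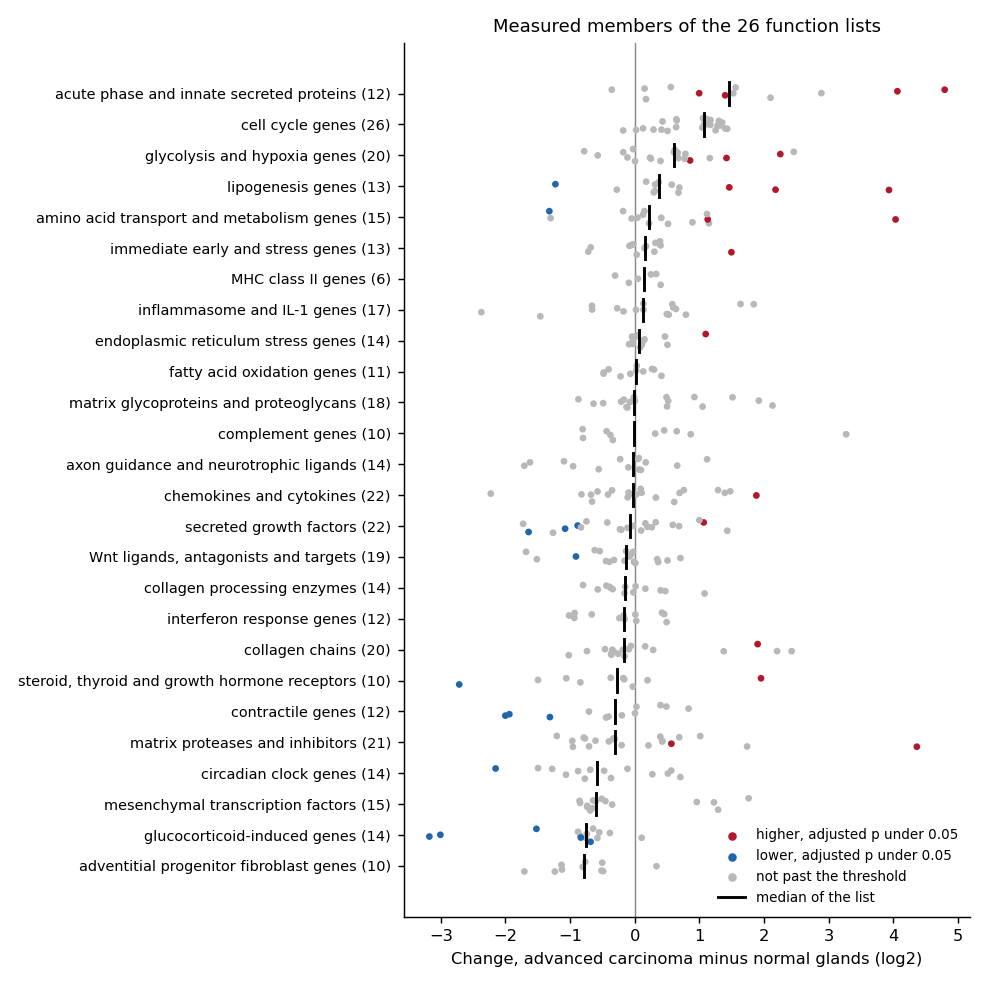
Fitted change (x axis, log2, advanced carcinoma minus normal glands) of each measured member of 26 function lists (y axis, members in brackets), 1 point a gene, with called genes in red (higher) and blue (lower) and a black bar for the list's median. Acute phase proteins have the highest median (1.46) with 4 called members, cell cycle genes a median of 1.07 with none, and the called glucocorticoid-induced genes all lie below 0.

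Some genes of glycolysis and lipid synthesis rose. Among 20 genes of glycolysis and the hypoxia response 3 were called, all higher, beside 1.62% of all genes: the glucose transporter gene Slc2a1 (8.25 and 8.00 against 9.35, 9.74 and 9.51), the phosphofructokinase gene Pfkl (6.36 and 5.55 against 8.22, 8.35 and 7.97) and the pyruvate kinase gene Pkm (8.16 and 8.00 against 8.98, 9.06 and 8.80). Their changes were 1.42 ± 0.29, 2.25 ± 0.36 and 0.86 ± 0.16, and the list's median was 0.61. None of the 3 kept its call with the luminal or the macrophage covariate. Slc2a1 lay at the threshold (adjusted p = 0.0497) and lost its call under quantile normalisation (adjusted p = 0.0561). Ldha, lactate dehydrogenase A, differed by 0.77 (adjusted p = 0.0554). Vegfa, Bnip3 and Adm, which hypoxia induces, gave -0.11, -0.03 and -0.78 with adjusted p of 0.72, 0.983 and 0.572.

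The promoter of Slc2a1 is shown because it holds ACGTG, the core of the element bound by hypoxia-inducible factors (chr4:119108495-119108794, GRCm38.p6, plus strand, match in capitals, at position -36).
Slc2a1: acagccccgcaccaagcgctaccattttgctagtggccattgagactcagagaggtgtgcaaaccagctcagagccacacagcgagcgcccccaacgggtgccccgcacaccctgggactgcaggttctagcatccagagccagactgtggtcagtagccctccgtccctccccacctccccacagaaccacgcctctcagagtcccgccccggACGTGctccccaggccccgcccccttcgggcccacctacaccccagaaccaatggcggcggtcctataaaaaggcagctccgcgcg
These letters, on either strand, were present in the promoters of 14 of 19 genes of the glycolysis and hypoxia list (73.7%), in 21.8% of all genes' promoters and in 24.4% of those of the genes tested. The share was 24.3% among the higher and 22.3% among the lower genes. Pfkl, which changed more than Slc2a1, had none in its window, and Pkm had a match at 1 of its 2 annotated start sites. Binding was not measured here either, and the share in the list describes the listed genes, not their change in this comparison.

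Of 13 lipogenesis genes 3 were higher and 1 lower, beside 1.62% and 0.717% of all genes. Srebf1, the sterol regulatory factor that drives fatty acid synthesis, read 6.87 and 6.69 against 8.91, 9.06 and 8.90 (2.18 ± 0.32, adjusted p = 0.022), and Me1, malic enzyme, changed by 1.46 ± 0.23. The fatty acid synthase gene Fasn gave 0.69 (adjusted p = 0.183). Dgat2, which completes triglyceride synthesis, changed by -1.23 ± 0.19, opposite to Srebf1, Me1 and Thrsp. Of 15 genes of amino acid transport and metabolism, Slc38a3 and the asparagine synthetase gene Asns (1.13 ± 0.23, adjusted p = 0.0497) were higher, beside 1.62% of all genes. Glul, glutamine synthetase, was the lower member, beside 0.717% of all genes, at 10.08 and 10.13 against 8.91, 9.04 and 8.54 (-1.32 ± 0.22, adjusted p = 0.0288). Its other probe set gave -1.13 (adjusted p = 0.0229). Xbp1, the spliced factor of the unfolded protein response, was the called member of 14 endoplasmic reticulum stress genes (1.10 ± 0.20, adjusted p = 0.0387), beside 1.62% of all genes. None of 11 fatty acid oxidation genes was called.

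Inflammatory lists gave few calls. Ccl8, a monocyte-attracting chemokine, was the called member of 22 chemokines and cytokines, higher, beside 1.62% of all genes. It read 6.21 and 5.67 against 8.00, 8.51 and 7.14 (1.88 ± 0.37, adjusted p = 0.045). The T cell chemokine gene Ccl5 stood at 10.30 and 9.02 against 7.73, 7.58 and 6.92 (adjusted p = 0.076), in the order of the T cell markers. None of 17 inflammasome and interleukin 1 genes was called. Il1b and Nlrp3 differed by 1.84 and 0.58 with adjusted p of 0.157 and 0.211, and Il1a by 1.64 (adjusted p = 0.0791). Il18 had the lowest p of the list, at 7.47 and 7.65 against 5.82, 6.10 and 6.32 (-1.46, adjusted p = 0.0686). Txnip differed by -0.66 (adjusted p = 0.0823) and the decoy receptor gene Il1r2 by -2.37 (9.69 and 9.93 against 7.10, 7.12 and 7.91, adjusted p = 0.094). Without the shared term 3 of the 17 were called, 1 higher and 2 lower, beside 5.61% of all genes in either direction. The cut-offs of the methods, an unadjusted p of 0.05 with a fold above 1.5, were also applied to the limma fit used here, and 9.86% of all genes passed. Of the 17 genes 5 were then higher, beside 6.29% of all genes, and 4 lower, beside 3.57%. No complement gene (10), interferon response gene (12) or MHC class II gene (6) was called. Ier3, an immediate early gene, was the called member of 13 such genes (1.5 ± 0.30, adjusted p = 0.0497), beside 1.62% of all genes.

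Cell cycle genes lay higher in the advanced arrays without a call. Their median difference was 1.07 over 26 genes, 25 were above 0 and 23 did not overlap, upwards, beside 21.5% of all genes. Mki67, a marker of cycling cells, read 7.02 and 6.5 against 8.03, 8.02 and 7.98 (1.28 ± 0.31, adjusted p = 0.0734), and the mitotic cyclin gene Ccnb2 read 7.53 and 6.73 against 8.27, 8.51 and 8.24 (adjusted p = 0.056). Without the shared term 7 of the 26 were called. At an unadjusted limma p under 0.05 and a fold above 1.5, 17 passed, all higher, beside 6.29% of all genes. Over the list, differences ran from -0.18 for E2f1 to 1.43 for Rrm2.

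Without the tied pair, 18 of the higher and 6 of the lower genes were called. They are given here because of that outcome, which uses part of the same values. Beside Mmp13, Car12, Col11a1, Col9a1 and Col9a3, the higher ones included Cldn2, a tight junction claudin (3.62 and 3.31 against 5.96, 5.94 and 6.17, 2.60 ± 0.16), Ltbp2, a matrix protein of elastic fibres (4.62 and 4.53 against 7.25, 7.58 and 7.15, 2.73 ± 0.24), and Hey1, a Notch target (6.55 and 6.15 against 8.71, 8.77 and 8.51, 2.32 ± 0.24). In Cldn2, Ltbp2 and Hey1 the lowest advanced value stood above the higher normal value by more than the normal arrays differed. Fgf23, a hormone of phosphate balance, read 4.07 and 3.85 against 6.57, 6.96 and 5.16, and Reg3g, an antibacterial lectin, 3.48 and 3.84 against 5.64, 5.32 and 5.04. The other higher genes were Clic6, Myo1d, Uck2, Zfp395, Endod1, Ncald, Cdh13 and Plaat3. The lower ones were Cyp3a57, Cxcl15, Foxa1, Klf9, Errfi1 and Gcg, the last at 4.72 and 5.03 against 4.08, 3.93 and 4.12.

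The same genes were then followed in arrays that the comparison does not contrast. In carcinoma against hyperplasia (3 arrays each, 1092 genes called, 5.48%), 321 of the 323 higher genes were above (99.4%, beside 41.0% of all genes) and 231 were called higher, beside 3.26% of all genes. Of the 143 lower genes 124 were below (86.7%, beside 59.0% of all genes) and 59 were called lower, beside 2.22%. These 6 arrays share the spread estimate and the term of the fit, and luminal and macrophage markers were also higher in carcinoma: luminal means lay between 6.0 and 7.42 in hyperplasia and between 8.34 and 9.51 in carcinoma, and macrophage means between 4.59 and 5.23 and between 6.16 and 7.71. Against carcinoma, no gene was called in advanced carcinoma (0 of 19938 by limma, smallest adjusted p 0.0604, 1225 at an unadjusted p of 0.05).

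The course over the stages differed among the genes described. Saa2 averaged 3.22 in normal glands, 4.58 in hyperplasia, 8.41 in carcinoma and 7.80 at the advanced stage, an advanced minus carcinoma difference of -1.04 in the fit (adjusted p = 0.831). Mmp13 averaged 3.55, 3.76, 5.79 and 8.02 and stood between the groups in carcinoma (advanced minus carcinoma 2.43, adjusted p = 0.206). Irf4 averaged 8.16, 8.03, 6.51 and 5.63. Among these 3, the level in hyperplasia was nearest to that of normal glands. Cyp3a57 averaged 7.51, 5.62, 5.84 and 4.90, Cxcl15 6.88, 5.01, 5.26 and 4.42, and Foxa1 7.67, 6.5, 6.21 and 5.24, with hyperplasia already below both normal arrays. Hyperplasia lay below both normal arrays in 52 of the 143 lower genes (7.8% of all genes) and above both in 51 of the 323 higher genes (10.7% of all genes), but these genes were called with the same normal arrays, so nothing is read from those counts. Their hyperplasia minus normal differences of -2.21, -2.21 and -1.31 did not pass (adjusted p of 0.2, 0.17 and 0.21), and no gene was called in that contrast (0 by limma, smallest adjusted p 0.0551, 1136 at an unadjusted p of 0.05). The hyperplasia mice were younger than the normal mice, so for these genes, too, age and stage cannot be told apart. Tph1 and Irs2, lower in advanced carcinoma, were called higher in carcinoma than in hyperplasia (adjusted p of 0.0303 and 0.0357). In 19 of the 143 lower genes carcinoma was not below hyperplasia, among them Mt1, Dbp, Cnn1 and Oxtr. These averaged 9.54, 8.06, 6.84 and 6.51 in normal glands and 8.79, 6.315, 5.46 and 5.39 in hyperplasia. In carcinoma they averaged 8.97, 6.81, 5.85 and 5.52. Their falls are thus not particular to advanced carcinoma.

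**Figure D5:**
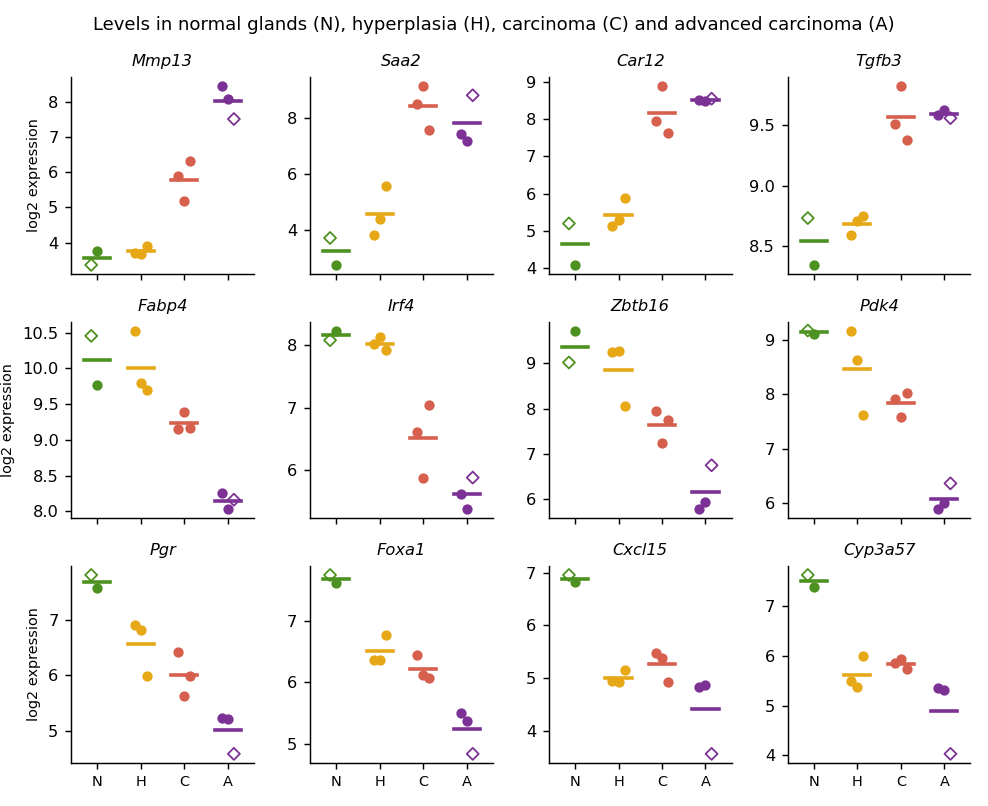
Expression (y axis, log2) of 12 genes in normal glands (N), hyperplasia (H), carcinoma (C) and advanced carcinoma (A), 1 point an array, with bars for means and open diamonds for the tied arrays D2 and D11. Mmp13 is highest in advanced carcinoma, Saa2 and Car12 are already high in carcinoma, and Foxa1, Cxcl15 and Cyp3a57 are lower in hyperplasia than in both normal arrays.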

How the data were processed

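RNA of sorted fibroblasts was extracted with the Nucleospin kit, converted to cDNA with iScript and hybridised to Affymetrix Mouse Gene 1.0 ST arrays. The authors normalised the arrays by robust multi-array average (RMA) in Partek Genomics Suite 6.5, and the deposited values are log2 intensities of 35399 probe sets, with array medians between 5.28 and 5.39. RMA aligns the arrays and draws low signals together, so that folds of dim genes are understated, and it gives no detection call. The number of arrays limits the precision. A total of 21789 probe sets had 1 gene symbol, 1621 several and 11989 none, and only the first were used. For 999 genes with several probe sets the brightest was kept, leaving 19938 genes.

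The methods describe a one-way model over the 4 stages with a threshold of 1.5-fold. Here the log2 values were fitted with limma 3.58.1 (R 4.3.3, lmFit and eBayes) over all 11 arrays, with the stages and the term shared by D2 and D11 (6 residual degrees of freedom), and p-values were adjusted by Benjamini-Hochberg over 19938 genes at a threshold of 0.05. "Called" means past that threshold, a change is advanced carcinoma minus normal glands on the log2 scale, and ± gives its standard error. Every p-value is two-sided. The scripts were tested on simulated data.

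The genes named are the 10 largest called changes in each direction without overlap between groups (predicted genes left aside), in each list the 4 measured genes of lowest p, and the genes of the sort antigens; others are named as chosen after their values were seen or as part of a whole list. The comparison, the 36 gene lists (513 symbols, 479 measured) and the tests were chosen with earlier results of these data known. Lists are described by counts and medians. Promoter sequences came from RefSeq (GRCm38.p6). Alternatives covered the term, the arrays fitted, scaling, dim genes, probe sets, moderation, weights, 2 marker lists as covariates and each array left out.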

Additional observations from a re-analysis of the deposited data

How the results depend on the processing

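All 50 called genes that the naming rule selects kept their direction in every alternative that gave them a value, while counts of calls varied. For fits that only left out arrays or the shared term, the kept direction was fixed in advance. In every called gene the advanced arrays all lay on 1 side of both normal arrays. The 466 genes became 1118 without the shared term, 27 without D2 and D11, 1296 with the arrays of the 2 stages only, 295 with dim genes removed, 1246 with array weights, 247 with unmoderated one-way contrasts, 299 with a fold above 2 required as well, and 1966 with an unadjusted p and a fold above 1.5. Leaving out each array in turn gave between 3 and 2493 genes. Median centring, quantile normalisation, a robust trend, every probe set and the covariates gave between 334 and 649. The share of higher genes was 69.3% in the main fit, 16.5% with the luminal covariate, 25.1% with the macrophage covariate, 14.8% without D5 and 58.3% without D8. Of the 50 named genes, 50 were still called without the term, 45 under quantile normalisation, 43 with the 2 stages only, 23 with unmoderated contrasts, 20 and 19 with the macrophage and luminal covariates, 7 without the tied pair, 5 without D5, 3 without D8 (Mmp13, Foxa1 and Col11a1) and 1 without D9 (Mmp13). The carcinoma against hyperplasia count of 1092 became 1845 without the term and 916 without D2 and D11. Fits with fewer arrays have fewer degrees of freedom, and the cause of the other shifts was not tested. No paired analysis was possible because the labels give no pairing between the 2 groups. Probe sets at low signal limit the comparison: dim genes were those with a mean of at most 5.64. Mmp13 was among these dim genes and has no value in that alternative, whereas 42 of the 50 named genes have one.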
